A study of Canis lupus familiaris with 4 samples.

Results

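Solute carriers are the membrane proteins that move amino acids, sugars, ions, metals, lipids and drugs across the plasma membrane and the membranes of organelles. Most are driven by the gradient of another solute, often sodium, and some work as pairs of a heavy and a light chain. In the mammary gland they supply the secretory epithelium with the precursors of milk, and in tumors they take up nutrients and export lactate. The genes described here carry a symbol that starts with SLC or SLCO followed by a digit. The mitochondrial SLC25A family (31 genes) and 2 further genes, SLC2A1 and SLC34A2, were left out. This gave 182 of the 11277 genes in the count tables. Genes were classed by the substrate that the carrier or its family is known to move, mostly from work in human and rodents. Of these genes 35 were placed with ions, 31 with amino acids, 29 with organic acids and drugs and 22 with metals. Smaller classes were lipids (15), nucleotide sugars (14), sugars (13), transmitters and peptides (8), vitamins (5) and nucleosides (1). A further 7 carriers have unsettled substrates. SLC9A3R1 and SLC7A6OS match the naming rule but are not transporters. Not all members act at the cell surface, since 123 were placed there, 47 on organelles such as the Golgi or lysosome, and 10 had no settled site.

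The tissues came from 6 intact female dogs with naturally occurring tumors: ductal carcinoma of the mammary gland (libraries T1 and T2) and the non-tumor gland beside it (libraries C1 and C2, called control). They were of several breeds, aged 5 to 14 years, and had early-stage disease. Each of the 4 libraries was a pool of 3 dogs, and by the paper's account T1 and C1 came from one set of dogs and T2 and C2 from the other. Of the libraries T1 and C1 were deep (35496260 counts in T1 and 32352002 in C1) and T2 and C2 shallow (3236218 in T2 and 4027367 in C2), and the median solute carrier had 855, 94, 623.5 and 99.5 counts in T1, T2, C1 and C2. No member had 0 counts in any library, and 12 had fewer than 10 counts in at least one. Levels are CPM, counts scaled to the size of each library, after TMM normalization. They depend on gene length and are therefore compared between libraries only, never between genes. Sums over a list of genes weigh its long and abundant genes most. With 2 pools per tissue the smallest p of an exact permutation test on a single gene, both sides counted, is 0.333, and for this reason a model fitted over the whole table was used. The tissues are bulk, so fewer cells of a type and less RNA per cell cannot be told apart. Of the luminal epithelial markers, KRT19, EPCAM and CDH1 were present in every library and did not pass the test, while ELF5, a transcription factor of alveolar cells, was lower in carcinoma. KRT8, KRT18, KRT7, CLDN4 and MUC1 were not analysed here.

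Relative to control, carcinoma had 20 solute carriers at a higher level and 10 at a lower level, among them a strong rise of the anion exchanger SLC26A4 and a strong fall of the iodide carrier SLC5A5. A gene was called where edgeR's quasi-likelihood test gave an adjusted p under 0.05 (Benjamini-Hochberg over the 11277 genes) and the level at least doubled or fell to 0.5 or less, a log2 fold change of 1 in size. The 30 called members are 16.5% of the 182, against 9.86% of all genes. By direction, 11.0% of members were higher, against 4.62% of all genes, and 5.49% were lower, against 5.24%. The median log2 fold change of the members was 0.28, and that of all genes was 0.03. Both carcinoma libraries lay above both controls for 71 members (29.6% of all genes did so) and below them for 46 (28.0% of all genes), together 64.3% of members, against 57.6% of all genes. Of the carriers placed at the cell surface 26 of 123 were called (16 higher and 10 lower). Among those placed on organelles it was 1 of 47, SLC35F1, and among those with no settled site 3 of 10, all higher. These placements were made from general knowledge and in part revised after the values were seen.

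**Figure D1:**
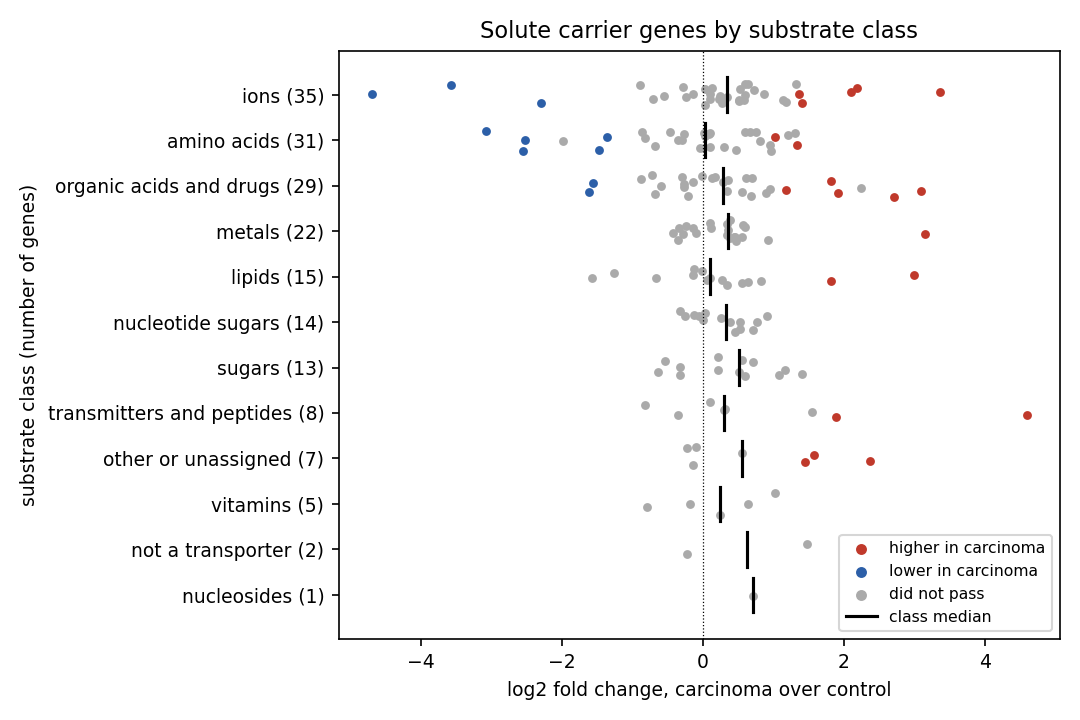
Log2 fold change of carcinoma over control (x axis) for each solute carrier gene, in rows by substrate class with the number of genes in parentheses. Red points are called higher in carcinoma, blue points lower and grey points did not pass, and black bars mark class medians. The ion class spans the widest range, −4.70 to 3.36, apart from SLC6A2 among the transmitter carriers at 4.60, and no sugar, nucleotide sugar or vitamin carrier was called.

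Among the 35 ion carriers 5 were higher and 3 lower in carcinoma (22.9% called, median log2 fold change 0.34). SLC26A4 encodes pendrin, which exchanges chloride for iodide and bicarbonate. It stood at 594 CPM in T1 and 601 in T2, against 56.9 in C1 and 59.6 in C2, a log2 fold change of 3.36 ± 0.12 (SE, adjusted p = 0.00147 by edgeR). The 4 values fall into a pair of narrow groups far apart. SLC5A5, the sodium iodide symporter that gives milk its iodide, had 0.343 CPM in T1 and 0.892 in T2, against 7.96 in C1 and 15.8 in C2. Its log2 fold change was −4.70 ± 0.65 (SE, adjusted p = 0.0119 by edgeR). The carcinoma libraries together held 15 reads of this gene and the controls 303, a control to carcinoma ratio of 22.9 (95% exact interval 13.6 to 41.4, counting error only). Both of these genes move iodide, and they changed in opposite directions. Of the milk secretion genes listed for comparison, 5 of 5 measured were lower in carcinoma, with summed levels of 27.1 and 16.95 CPM in T1 and T2, against 1866 and 1151 in C1 and C2. Their part in the fall of SLC5A5 was not tested.

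Sulfate carriers went both ways. SLC13A1, which takes up sulfate with sodium, had 2.72 and 2.38 CPM in T1 and T2, against 34.5 and 27.8 in C1 and C2, a log2 fold change of −3.58 ± 0.27 (SE, adjusted p = 0.00277). Its relative SLC13A4 had 6.24 and 5.95 CPM in T1 and T2, against 2.30 and 2.32 in C1 and C2, a log2 fold change of 1.40 ± 0.29 (SE, adjusted p = 0.0393). Although the groups of SLC13A4 lie apart, its call was lost without any one of the libraries C1, C2, T1 or T2 (adjusted p 0.246, 0.137, 0.148 and 0.132), and DESeq2 did not call it (adjusted p = 0.166). SLC26A2, the sulfate carrier that cartilage needs for its proteoglycans, had 52.6 and 52.0 CPM in carcinoma and 23.9 and 34.1 CPM in control and did not pass (log2 fold change 0.87, adjusted p = 0.0620). In the same libraries 3 of 6 cartilage markers were higher in carcinoma (ACAN, COL2A1 and HAPLN1). The 6 markers had summed levels of 1101 and 1410 CPM in T1 and T2, against 105 and 113 in C1 and C2. SOX9 (log2 fold change 0.53), MATN3 (0.39) and COL9A1 (−0.71, in the other direction) did not pass. The part of the cartilage genes in the values of the sulfate carriers was not tested.

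The calcium exchangers also went both ways. SLC24A3 and SLC24A2 exchange sodium for calcium and potassium, and both rose. SLC24A3 had 479 CPM in T1 and in T2, against 190.1 in C1 and 184 in C2 (log2 fold change 1.36, standard error 0.11, adjusted p = 0.00308), and SLC24A2 had 20.6 and 19.9 CPM in T1 and T2, against 4.98 and 3.71 in C1 and C2 (log2 fold change 2.18, standard error 0.27, adjusted p = 0.00924). SLC8A3, a sodium and calcium exchanger of skeletal muscle and brain, fell to 6.04 and 5.06 CPM in T1 and T2, against 26.9 and 29.0 in C1 and C2 (log2 fold change −2.30, standard error 0.23, adjusted p = 0.00532). Of the striated muscle markers, 6 of 6 measured were lower in carcinoma, and MYL2, TNNT3 and MB had 0 counts in T2. The 6 had summed levels of 21.3 and 27.1 CPM in T1 and T2, against 1856 and 2979 in C1 and C2. TTN alone held 1472 CPM of this sum in C1 and 2462 in C2. The part of the muscle markers in the fall of SLC8A3 was not tested. SLC9B2, a member of the sodium and proton exchange family, had 16.4 and 13.1 CPM in T1 and T2, against 3.32 and 3.71 in C1 and C2, and its call (log2 fold change 2.10, standard error 0.29, adjusted p = 0.0122) was lost without C1 (adjusted p = 0.0820).

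Other widely studied ion carriers did not pass at this fold. The bicarbonate carrier SLC4A4 had 71.6 and 56.8 CPM in carcinoma and 126 and 114 CPM in control, so that the groups lay apart, with a log2 fold change of −0.89 (adjusted p = 0.0228) that stayed short of the required size. SLC12A2, which brings sodium, potassium and chloride into the cell, had a log2 fold change of −0.25 ± 0.12 (SE, adjusted p = 0.259). The sodium pump maintains the gradient that many of these carriers use. Its beta subunit gene ATP1B1 had 514 and 457 CPM in T1 and T2, against 193 and 163 in C1 and C2, and was higher in carcinoma (log2 fold change 1.44, adjusted p = 0.00494). ATP1B3 did not pass (log2 fold change −0.22, adjusted p = 0.425). In the whole list of accessory subunits and regulators, 2 of 9 measured genes were higher and none was lower (edgeR called no other member of it), with a median log2 fold change of 0.27.

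**Figure D2:**
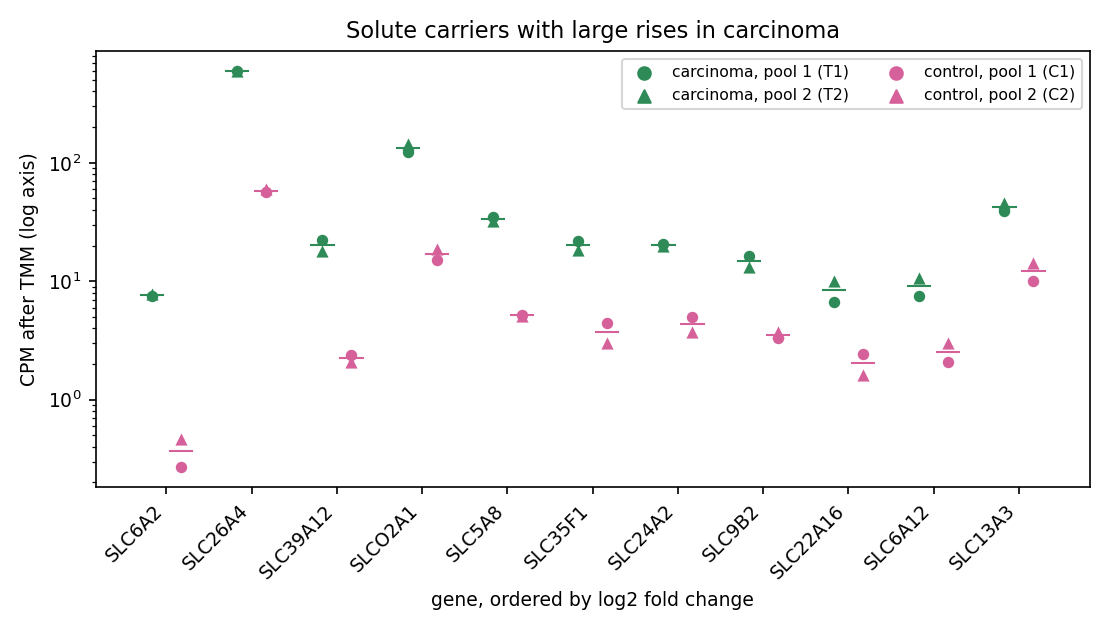
CPM after TMM (log axis) of 11 solute carriers with large rises in carcinoma, ordered by log2 fold change. Green marks are carcinoma and pink marks control, circles pool 1 and triangles pool 2, and short bars are means of the 2 pools. In each gene both carcinoma libraries lie above both controls, with SLC26A4 near 598 CPM on average in carcinoma and 58.2 in control.

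Of the 31 amino acid carriers 2 were higher and 5 lower in carcinoma (22.6% called, median log2 fold change 0.03). The number called lower in this class went up or down with the library left out. It was 2 when at least 10 counts were asked of every library. SLC38A4, which takes up neutral amino acids with sodium, had 3.49 and 2.68 CPM in T1 and T2, against 28.5 and 25.7 in C1 and C2 (log2 fold change −3.07, standard error 0.26, adjusted p = 0.00371). SLC38A1, a glutamine carrier of the same family, had 64.8 and 52.0 CPM in T1 and T2, against 158 and 144 in C1 and C2 (log2 fold change −1.36, standard error 0.15, adjusted p = 0.00650). Both kept their calls whichever library was left out. SLC38A2, the family member that cells raise when amino acids are short, had 206 and 195 CPM in carcinoma and 347 and 382 CPM in control, groups apart, but with a log2 fold change of −0.86 (adjusted p = 0.0107) it was under the required size. SLC38A6 went the other way, at 198 and 184 CPM in T1 and T2, against 98.4 and 89.7 in C1 and C2 (log2 fold change 1.02, standard error 0.12, adjusted p = 0.00700). It sat at the fold threshold and had log2 fold changes of 0.96 without C2 and 0.92 without T1. SLC38A6 overlaps TRMT5 in the RefSeq table, and TRMT5 itself had a log2 fold change of 0.07 (adjusted p = 0.863).

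Of the other 3 amino acid carriers that fell, SLC36A2 and SLC6A15 had few counts in carcinoma. SLC36A2, a proton-coupled carrier of small amino acids known from kidney and muscle, had 1.83 and 0.595 CPM in T1 and T2 (64 and 2 counts), against 8.77 and 8.81 in C1 and C2 (259 and 38 counts). Its log2 fold change was −2.56 ± 0.46 (SE, adjusted p = 0.0253, and 0.0608 without C1). SLC6A15, a carrier of branched-chain amino acids and proline known from brain, had 26 and 3 counts in T1 and T2, against 134 and 19 in C1 and C2, a log2 fold change of −2.52 ± 0.35 (SE, adjusted p = 0.0116). The call was lost without C1 (adjusted p = 0.0546) and without T1 (adjusted p = 0.0808). SLC6A14, which takes up most neutral and basic amino acids and is known from mammary epithelium, had 6.67 and 7.73 CPM in T1 and T2, against 22.2 and 16.9 in C1 and C2. For SLC6A14 the log2 fold change was −1.48 ± 0.27 (SE, adjusted p = 0.0272), and the call was lost without C1 (adjusted p = 0.155) and without T1 (adjusted p = 0.112). The striated muscle and milk secretion markers given above fell in the same libraries, and their part in the falls of these 3 genes was not tested.

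The acidic amino acid carrier SLC1A1, which takes up glutamate, aspartate and cysteine, rose. It had 138 CPM in T1 and 142 in T2, against 56.1 in C1 and 54.5 in C2, a log2 fold change of 1.34 ± 0.11 (SE, adjusted p = 0.00324). SLC7A11, SLC3A2, SLC7A5 and SLC1A5, which are widely studied in tumors, did not reach the required fold. SLC6A14 and SLC38A1, given above, were called lower. SLC7A11, the light chain that imports cystine for glutathione synthesis, had 44.3 CPM in T1 and in T2, against 25.2 in C1 and 27.6 in C2 (log2 fold change 0.75, standard error 0.16, adjusted p = 0.0409). Its heavy chain SLC3A2 had 40.03 and 51.2 CPM in carcinoma and 21.7 and 36.4 CPM in control (log2 fold change 0.66, adjusted p = 0.228). SLC7A5, the light chain for large neutral amino acids, had 30.3 and 65.4 CPM in carcinoma and 53.5 and 96.0 CPM in control, so its groups overlapped (log2 fold change −0.67, adjusted p = 0.397). The glutamine exchanger SLC1A5 also overlapped between groups (log2 fold change 0.60, standard error 0.40, adjusted p = 0.382). None of the 8 measured genes of the amino acid response list (ATF4, ASNS, PSAT1 and others) was called (edgeR, with 2 at an unadjusted p under 0.05, ATF4 and SHMT2, 0 called by DESeq2, and 1 called higher with the replicate block, DDIT4), and the median log2 fold change of the list was 0.53.

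**Figure D3:**
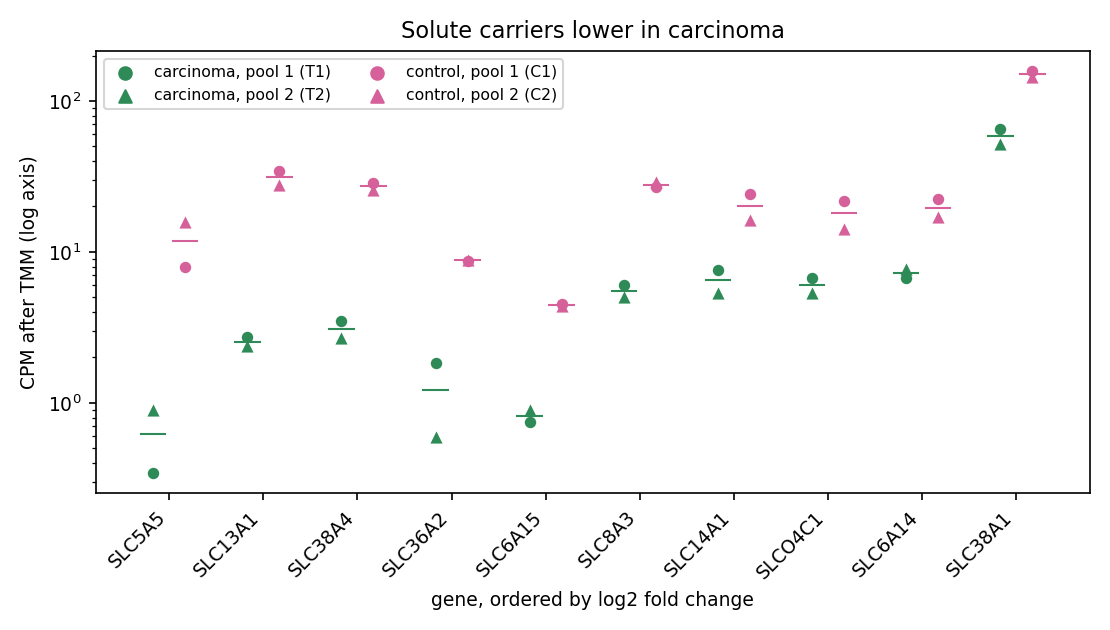
CPM after TMM (log axis) of the 10 solute carriers called lower in carcinoma, ordered by log2 fold change. Green marks are carcinoma and pink marks control, circles pool 1 and triangles pool 2, and short bars are means of the 2 pools. Both carcinoma libraries lie below both controls in each gene, and SLC5A5 averages 0.618 CPM in carcinoma and 11.9 in control.

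Of the 29 genes placed with organic acids and drugs 5 were higher and 2 lower in carcinoma (24.1% called, median log2 fold change 0.29). This class also took in the urea channel SLC14A1 and all measured SLC16 genes. SLC5A8, which takes up lactate and short-chain fatty acids with sodium, had 34.9 and 32.4 CPM in T1 and T2, against 5.18 and 5.10 in C1 and C2 (log2 fold change 2.71, standard error 0.21, adjusted p = 0.00324). SLC13A3, a carrier of succinate and other dicarboxylates, had 39.3 and 45.5 CPM in T1 and T2, against 10.1 and 14.4 in C1 and C2 (log2 fold change 1.82, standard error 0.25, adjusted p = 0.0119). These genes kept their calls whichever library was left out. SLC22A16, a carnitine carrier, had 6.67 and 10.1 CPM in T1 and T2, against 2.44 and 1.62 in C1 and C2 (log2 fold change 1.91, adjusted p = 0.0366), and lost its call without C1, C2 or T2 (adjusted p 0.110, 0.101 and 0.0852). SLC16A14, a member of the monocarboxylate family, had a log2 fold change of 1.18 ± 0.24 (SE, adjusted p = 0.0345), with adjusted p-values between 0.0652 and 0.230 when any one library (C1, C2, T1 or T2) was left out.

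The 2 members of this class that fell were SLC14A1, a urea channel of red cells and kidney vessels, and SLCO4C1, a carrier of steroid conjugates and thyroid hormone. SLC14A1 had 7.61 and 5.35 CPM in T1 and T2, against 24.3 and 16.2 in C1 and C2 (log2 fold change −1.61, standard error 0.33, adjusted p = 0.0375). SLCO4C1 had 6.70 and 5.35 CPM in T1 and T2, against 21.8 and 14.1 in C1 and C2 (log2 fold change −1.56, standard error 0.33, adjusted p = 0.0394). Their groups did not overlap, but both calls were lost without C1 (adjusted p 0.173 for SLC14A1 and 0.185 for SLCO4C1), without T1 (0.0564 and 0.0813) and without T2 (0.0593 and 0.0715).

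The lactate carriers of tumors differed in how firmly they could be placed. SLC16A3, the exporter MCT4 that glycolytic cells use, had 6.67 and 16.7 CPM in T1 and T2, against 1.46 and 3.94 in C1 and C2. Within each pool of dogs the log2 ratio was similar, 2.19 in pool 1 and 2.08 in pool 2, but pool 2 was higher than pool 1 in both tissues. The test without pairing did not pass (log2 fold change 2.24, standard error 0.71, adjusted p = 0.115), whereas with the pool as a replicate block the gene was called (log2 fold change 2.15, adjusted p = 8.64e-17), as it was by DESeq2 (adjusted p = 0.0241). The block leaves 1 residual degree of freedom. The common dispersion, the spread between libraries beyond counting error, was 0.00216 with the block and 0.0508 without it. Adjusted p-values with the block, here and below, therefore do not measure the spread between dogs. SLC16A1 (MCT1) had 12.6 and 16.4 CPM in carcinoma and 8.97 and 9.97 CPM in control (log2 fold change 0.60, adjusted p = 0.222). SLC16A3 overlaps CSNK1D in the RefSeq table, which had a log2 fold change of 0.52 (adjusted p = 0.225).

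The 15 lipid carriers held 2 genes that were higher and none called lower (edgeR and DESeq2 differ here, with 2 lower genes by DESeq2 and by the replicate block). SLCO2A1 takes up prostaglandins for their breakdown in the cell. It had 123 and 145 CPM in T1 and T2, against 15.2 and 18.8 in C1 and C2 (log2 fold change 3.0, standard error 0.17, adjusted p = 0.00187), and every leave-one-out fit kept it (highest adjusted p 0.00360). This carrier is known from blood endothelium, and 4 of 6 endothelial markers were lower in carcinoma. The 6 markers had summed levels of 316 and 313 CPM in T1 and T2, against 688 and 705 in C1 and C2. KDR (log2 fold change 0.03) and TEK (−0.71) did not pass. The part of endothelial cells in the value of SLCO2A1 was not tested. SLC51B, a subunit of the exporter of bile acids and steroids, had 36.9 and 43.7 CPM in T1 and T2, against 10.02 and 13.2 in C1 and C2 (log2 fold change 1.81, standard error 0.24, adjusted p = 0.0101). In the RefSeq table it overlaps RASL12, which rose as well (log2 fold change 1.95, adjusted p = 0.0150), and MTFMT, which did not pass (log2 fold change 0.37, adjusted p = 0.320). The sources name different counting tools, so whether strand was used to assign the reads of these overlaps is not known. SLC27A6, a fatty acid carrier tied to milk fat, had 11.3 and 7.14 CPM in carcinoma and 29.1 and 16.0 CPM in control. It did not pass (log2 fold change −1.26, adjusted p = 0.112), and was called with the replicate block (log2 fold change −1.34, adjusted p = 2.52e-20). SLC27A1, which imports fatty acids in muscle and fat, had overlapping groups (log2 fold change 0.83, adjusted p = 0.283).

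Of the 22 metal carriers 1 was called, SLC39A12, a zinc importer known from brain (4.55% called, median log2 fold change 0.35). It had 22.2 and 18.1 CPM in T1 and T2 (775 and 61 counts), against 2.40 and 2.09 in C1 and C2 (71 and 9 counts), a log2 fold change of 3.14 ± 0.29 (SE, adjusted p = 0.00439). The other 21 metal carriers had log2 fold changes between −0.43 and 0.92, so that none reached a doubling in either direction. Within this narrow range lay the zinc importer SLC39A6, an estrogen-responsive gene in human breast tumors, at 60.1 and 52.6 CPM in carcinoma and 45.1 and 36.2 CPM in control (log2 fold change 0.47, adjusted p = 0.160). The iron exporter SLC40A1 had a log2 fold change of 0.45 ± 0.21 (SE, adjusted p = 0.240), and the phagosomal metal carrier SLC11A1 one of 0.11 (standard error 0.48, adjusted p = 0.904), which turned negative without C1 or T2. The iron and metal handling list held 8 measured genes, none of them called by edgeR or DESeq2 (1 at an unadjusted p under 0.05), with a median log2 fold change of 0.01. The transferrin receptor gene TFRC had a log2 fold change of 0.78 (adjusted p = 0.0106), below the required size.

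No sugar carrier was called among 13 genes (edgeR, with 6 at an unadjusted p under 0.05, 1 called by DESeq2 and 2 with the replicate block), although their median log2 fold change was 0.51. The smallest p was that of SLC2A13, a myo-inositol carrier, at 253 and 249.5 CPM in carcinoma and 164 and 144 CPM in control (log2 fold change 0.70, standard error 0.12, adjusted p = 0.0209). The fructose carrier SLC2A5 had 6.24 and 10.1 CPM in carcinoma and 4.91 and 9.27 CPM in control, so that the pools differed more than the tissues (log2 fold change 0.21, adjusted p = 0.798). Among the 14 nucleotide sugar carriers of the Golgi and endoplasmic reticulum, none was called (edgeR and DESeq2, with 3 at an unadjusted p under 0.05), and log2 fold changes lay between −0.32 and 0.90. SLC35D1, which supplies sugars for chondroitin sulfate, had 80.9 and 79.1 CPM in carcinoma and 54.4 and 57.5 CPM in control (log2 fold change 0.52, standard error 0.11, adjusted p = 0.0457).

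Among the smaller classes the largest rise of any solute carrier was found. SLC6A2, the noradrenaline transporter, had 7.53 and 7.73 CPM in T1 and T2 (263 and 26 counts), against 0.271 and 0.464 in C1 and C2 (8 and 2 counts), a log2 fold change of 4.60 ± 0.41 (SE, adjusted p = 0.00404). The ratio of summed counts was 25.5 (95% exact interval 13.7 to 53.8, counting error only), and the call held whichever library was left out (highest adjusted p 0.0290). SLC6A12, which takes up betaine and GABA, had 7.55 and 10.7 CPM in T1 and T2, against 2.07 and 3.01 in C1 and C2 (log2 fold change 1.89, adjusted p = 0.0344), and lost its call without C1, C2 or T2 (adjusted p 0.213, 0.0582 and 0.0838).

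Of the 7 carriers with unsettled substrates 3 rose, all of the SLC35 family, to which every gene of this class but SLC46A3 belongs. In the whole SLC35 family 3 of 20 genes were called (15%), against 16.5% of all members and 9.86% of all genes. These 3 were all higher, a call made for 11.0% of all members and 4.62% of all genes. SLC35F1 had 21.7 and 18.4 CPM in T1 and T2, against 4.47 and 3.01 in C1 and C2 (log2 fold change 2.37, standard error 0.31, adjusted p = 0.00997). SLC35F2 had a log2 fold change of 1.57 ± 0.19 (SE, adjusted p = 0.00798), and SLC35G1 one of 1.45 (standard error 0.24, adjusted p = 0.0208), which was lost without C1 (adjusted p = 0.135) and without T1 (adjusted p = 0.0959). Vitamin carriers gave no call among 5 genes (edgeR and DESeq2, with 2 at an unadjusted p under 0.05). The thiamine carrier SLC19A2 had 22.2 and 17.8 CPM in carcinoma and 36.9 and 32.9 CPM in control (log2 fold change −0.79, adjusted p = 0.0701). Its relative SLC19A3 had 5.72 and 2.08 CPM in carcinoma and 2.95 and 2.55 CPM in control, with log2 ratios of opposite sign in the pools, 0.96 and −0.29. The nucleoside carrier measured, the lysosomal SLC29A3, did not pass (log2 fold change 0.71, adjusted p = 0.262). SLC9A3R1, which encodes a scaffold of apical carriers, had 19.2 and 37.5 CPM in T1 and T2, against 7.01 and 13.7 in C1 and C2, and was called with the replicate block (log2 fold change 1.45, adjusted p = 5.95e-22) and by DESeq2 (adjusted p = 0.0219) but not in the unpaired test (log2 fold change 1.48, adjusted p = 0.123). Carriers with fewer than 10 counts in a library, whose values rest on few reads, also included these. SLC13A1 had 95 and 8 counts in T1 and T2, against 1018 and 120 in C1 and C2, and SLC38A4 had 122 and 9, against 842 and 111. SLC22A16 had 233 and 34 counts in T1 and T2, against 72 and 7 in C1 and C2, and SLC19A3 had 200 and 7, against 87 and 11. The GABA carrier SLC6A13 had 172 and 26 counts in T1 and T2, against 72 and 6 in C1 and C2, and did not pass (log2 fold change 1.54, adjusted p = 0.0820). SLCO1C1, a thyroid hormone carrier of the brain's vessels, had 129 and 5 counts in T1 and T2, against 161 and 23 in C1 and C2, and did not pass either (log2 fold change −0.88, adjusted p = 0.265).

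**Figure D4:**
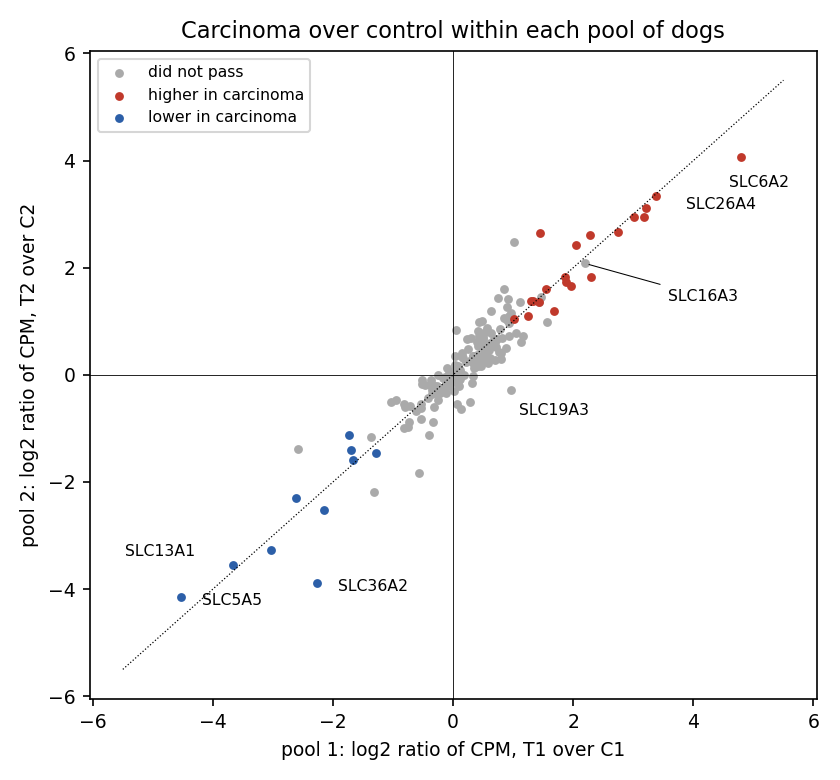
Log2 ratio of carcinoma CPM to control CPM, with T1 over C1 of pool 1 on the x axis and T2 over C2 of pool 2 on the y axis, with 1 point per solute carrier gene. Red points are called higher, blue points lower and grey points did not pass, and the dotted line marks equal ratios. The sign was the same in both pools for 166 of 182 genes, SLC36A2 lies off the line at −2.26 and −3.89, and SLC19A3 is one of 16 genes with opposite signs.

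The log2 ratio of carcinoma to control had the same sign in both pools of dogs for 166 of the 182 members (91.2%, against 84.5% of all genes) and opposite signs for 16. With the pool as a replicate block, 30 members were higher (7.09% of all genes in that fit) and 13 lower (6.83% of all genes), and no call of the unpaired test was lost. The 10 genes called higher only with the block were SLC6A9, SLC9A5, SLC4A2, SLC12A8, SLC9A3R1, SLC22A17, SLC16A3, SLC2A10, SLC37A2 and SLC6A13, and the 3 called lower were SLC1A7, SLC10A6 and SLC27A6. Leaving out each library in turn, 17 of the 30 called members (12 higher and 5 lower) kept their call in all 4 fits. These were SLC26A4, SLCO2A1, SLC6A2, SLC39A12, SLC5A8, SLC24A3, SLC24A2, SLC1A1, SLC13A3, SLC51B, SLC35F1 and SLC35F2 among the higher genes and SLC5A5, SLC13A1, SLC38A4, SLC38A1 and SLC8A3 among the lower.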

How the data were processed

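Each deposited table held whole-number counts per gene without normalization. To make them, the authors used TopHat2 and HTSeq according to the paper, whereas STAR and featureCounts (beside FastQC and DESeq2) stand in the submitters' processing notes. Libraries were made with a strand-marking kit, and the paper gives default settings for HTSeq and a version for DESeq2 alone. The counter that made these tables, and the build: not given in the sources used here. The lowest sum of a gene over the 4 libraries is 155 counts. The other column gives a length per gene in bases near the gene span with introns (median ratio to the RefSeq span 0.970), so no per-length level was computed. RefSeq matched 178 of 182 members by symbol (assembly UU_Cfam_GSD_1.0) and served only to find overlapping neighbours, which 21 members had in the tables.

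The main fit was edgeR 4.0.16 under R 4.3.3 (TMM, quasi-likelihood test, no block, filterByExpr, which kept all genes), and DESeq2 1.42.0 was an alternative. Figures used matplotlib 3.10.9. Standard errors are the absolute log2 fold change over the square root of F. By the paper, libraries with one number share their dogs, so the numbers pair the samples. Deviations of T1 and C1 from their tissue means had a correlation of 0.802 over genes (genes are no independent replicates). Library depth goes with the pool number too, so shared dogs and shared depth cannot be told apart in it. A fit with the replicate block was added. Fits were tested on simulated data with 11277 genes, a common dispersion and no pool effect. The simulation therefore did not test the block on paired data. There edgeR without the block called 25.4% of genes with a true log2 fold change of 1 in size and 100% at 2. Per TMM-scaled total, 3 counts, the most a count of 0 allows, equal 0.0858 CPM in T1, 0.892 in T2, 0.102 in C1 and 0.695 in C2. The other alternatives were RLE factors, a minimum of 10 counts in every library, no filter, no fold minimum and leaving out each library.

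Named were all called members (per-library values for the 12 largest rises and falls), the member with the smallest p in each class and 25 carriers listed by name, of which SLC2A3, SLC2A4, SLC30A2, SLC29A1 and SLC28A3 were not analysed here. SLC26A2 and the genes called only with the block were added after their values were seen. Some genes that this rule names are not reported here, though they stay in the counts. Members, classes and lists were chosen with earlier results of these data known. Of the lists, basal and myoepithelial genes (0 called of 5 by edgeR, 4 at an unadjusted p under 0.05, and 2 called by DESeq2 and 2 higher with the block), macrophage genes (1 lower of 5), T cell genes (1 lower of 4, and 3 with the block) and adipocyte genes (0 called of 2 by edgeR and DESeq2, 0 at an unadjusted p under 0.05) are not discussed further.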

Additional observations from a re-analysis of the deposited data

How the results depend on the processing

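The counts of solute carriers called higher (20) and lower (10) in carcinoma were the same with RLE factors and with no filter on low counts. They were 22 and 12 by DESeq2, 28 and 13 without a minimum fold change, and 30 and 13 with the replicate block. When at least 10 counts were asked of every library, 16 were higher and 5 lower. This filter removes 9 called genes with fewer than 10 counts in the shallow library (T2 or C2) of the tissue where they are low. Of these only SLC6A2 was under 10 in a deep library as well (8 counts in C1). Leaving out one library gave 13 to 18 higher and 5 to 11 lower, the lowest of each without C1, where 18 of the 30 calls were kept and none was new. A lone library of a tissue was then assumed to vary like the pair of the other tissue. No called gene changed direction under any alternative that tested it. Reversals were seen in 3 named genes that were not called, SLC11A1 (−0.43 without C1 and −0.23 without T2 on the log2 scale, range to 0.67), SLC2A5 (−0.29 without C1 and −0.13 without T2, range to 0.69) and SLC19A3 (−0.47 without T1, range to 1.03). The cause was not tested. T2 and C2 hold a median of 94 and 99.5 counts per member and limit the precision for rare carriers.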

Other observations

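Some solute carriers differed between the pools of dogs in both tissues, in a share near that of all genes. In both tissues 9 of 182 members (4.95%, against 3.74% of all genes) were at least 2-fold higher in pool 2 than in pool 1, and 0 were at least 2-fold higher in pool 1 (0.443% of all genes). The 9 were SLC12A7, SLC16A3, SLC16A5, SLC22A17, SLC26A11, SLC35B2, SLC37A2, SLC38A10 and SLC4A2, named after their values were seen, and 0 of them were called between the tissues in the unpaired edgeR test. SLC38A10, of the neutral amino acid family, had 28.8 CPM in T1 and 77.3 in T2, against 20.05 in C1 and 57.03 in C2. SLC4A2, which exchanges chloride for bicarbonate, had 12.4 and 41.0 CPM in T1 and T2, against 6.67 and 17.2 in C1 and C2. Its log2 fold change of carcinoma over control was 1.18 (adjusted p = 0.358) without the replicate block and 1.02 (adjusted p = 1.22e-11) with it by edgeR. Library depth also differs between the pools, as do the dogs and, by the paper's account, their mean age, which was higher in pool 1. The part of each in these offsets was not tested.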
